A study of Mus musculus with 6 samples.

Results

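The genes described here encode growth factor receptor tyrosine kinases, the cell surface proteins through which fibroblast growth factors (FGFs), hepatocyte growth factor (HGF), platelet-derived growth factors (PDGFs) and epidermal growth factor (EGF) family ligands act. The set was given by gene name and holds 10 of the 46078 genes listed: *Fgfr1*, *Fgfr2*, *Fgfr3*, *Fgfr4*, *Met*, *Pdgfra*, *Pdgfrb*, *Egfr*, *Erbb2* and *Erbb3*. RNA-sequencing was performed on C2C12 cells, an immortalized mouse myoblast line, in 3 libraries in which *Hnrnpa2b1* was knocked out (KO) and 3 wild type (WT) libraries. Cells of both genotypes were harvested on day 2 after the serum had been reduced and insulin, transferrin and selenium added, which makes myoblasts differentiate. *Hnrnpa2b1* encodes an RNA-binding protein that takes part in splicing. The KO cells were made with CRISPR-Cas9 and a single guide RNA, selected with puromycin and isolated as clones, and the methods describe 3 independent clones of each genotype without saying which clone each library came from. Where libraries do not come from separate clones, p-values measure only the spread between these libraries. The libraries are called KO1 to KO3 and WT1 to WT3.

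The labels were first checked against the targeted gene and the cell type. Levels are given as CPM, the reads of a gene relative to its library's total after scaling with TMM factors (trimmed mean of M-values). *Hnrnpa2b1* RNA stood at 159, 195 and 249 CPM in the KO libraries against 225, 229 and 252 CPM in the WT libraries. KO differed from WT by log2 −0.23 (standard error 0.18, adjusted p = 0.381, edgeR), so the RNA level does not separate the genotypes. Protein was not measured in these files, and the methods state that the KO clones were checked for it by immunofluorescence and Western blotting. All 13 muscle markers passed the filter on low counts, with summed CPM of 11210 to 21760 in KO libraries and 18260 to 22440 in WT libraries. Of these markers *Myod1* (log2 0.99, adjusted p = 0.0141) and *Cdh15* (log2 0.70, adjusted p = 0.0258) were higher and *Myf5* (log2 −1.50, adjusted p = 0.0303) and *Myf6* (log2 −3.58, adjusted p = 0.0162) lower in KO (edgeR), 30.8% of the list beside 22.7% of all genes. DESeq2 called 5 lower and limma on TPM 4, and *Myh3*, *Tnnt2* and *Actc1* were lower in every KO library than in any WT library without passing the edgeR threshold (adjusted p = 0.126, 0.0941 and 0.0890). The part of these differences in the receptor results was not tested. *Myf5* lost its call when the median change of its chromosomal region was removed (log2 −0.65, adjusted p = 0.258, edgeR). *Myod1*, *Cdh15*, *Myf5* and *Myf6* each lost the call without WT1 and without WT3 (edgeR), and *Myf6* stood at log2 −5.08 without KO1. Endothelial, immune, Schwann cell and epithelial marker lists summed to at most 1.81, 4.51, 1.42 and 2.27 CPM in any library. From the immune list *Lyz2* was called higher, with 23, 22 and 23 counts in KO and 3, 0 and 6 in WT (adjusted p = 0.0323, edgeR). Libraries held 33605258 to 40558740 counted reads. The KO libraries differed among themselves, with muscle marker sums of 21760, 11210 and 17150 CPM in KO1 to KO3, and receptor results are given with single libraries left out.

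Growth factor receptors of this type dimerize when ligand binds, phosphorylate each other on tyrosines and recruit adaptors that switch on the RAS-MAPK and PI3K routes. In muscle, FGF and HGF signaling keeps myoblasts dividing and delays their differentiation, and MET is a classical marker of muscle stem cells. PDGFRα marks fibro-adipogenic cells and PDGFRβ marks pericytes and other mesenchymal cells in muscle tissue. ERBB3 binds neuregulins but has little kinase activity of its own, and signals as a partner of ERBB2.

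Of the 10 receptors, 7 have a promoter window in RefSeq (GRCm38.p6), which spans 250 bases before to 50 bases after the annotated start: *Fgfr2*, *Fgfr3* (with 2 windows), *Fgfr4*, *Met*, *Pdgfra*, *Egfr* and *Erbb2*. *Fgfr1*, *Pdgfrb* and *Erbb3* had no entry. A stretch just after the start was found in 2 GENCODE transcripts each for *Met* and *Egfr* and in 0 for *Pdgfra* and *Fgfr2*, whose starts are thus not backed by a GENCODE transcript here. The windows of the receptors that were higher in KO libraries, other than *Pdgfrb*, are shown, because these genes share the direction of their change. They run 5′ to 3′ along the gene's strand. Capitals mark matches on either strand to an AP-1 site (TGANTCA), an E-box (CANNTG, the sequence that myogenic factors such as MYOD1 bind) or a GC box (GGGCGG).

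*Met*, chr6:17463707-17464006, plus strand: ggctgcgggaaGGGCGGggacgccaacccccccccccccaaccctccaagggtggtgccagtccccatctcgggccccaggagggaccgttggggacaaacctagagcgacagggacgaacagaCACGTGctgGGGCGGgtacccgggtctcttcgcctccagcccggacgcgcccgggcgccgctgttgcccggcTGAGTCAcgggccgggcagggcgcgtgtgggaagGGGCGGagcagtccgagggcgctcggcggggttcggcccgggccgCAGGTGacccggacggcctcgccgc

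*Pdgfra*, chr5:75152001-75152300, plus strand: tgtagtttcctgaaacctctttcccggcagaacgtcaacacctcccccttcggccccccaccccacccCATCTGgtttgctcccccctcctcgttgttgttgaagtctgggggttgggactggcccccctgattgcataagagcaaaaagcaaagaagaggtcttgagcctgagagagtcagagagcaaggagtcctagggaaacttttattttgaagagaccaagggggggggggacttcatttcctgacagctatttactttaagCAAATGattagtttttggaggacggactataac

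*Egfr*, chr11:16751953-16752252, plus strand: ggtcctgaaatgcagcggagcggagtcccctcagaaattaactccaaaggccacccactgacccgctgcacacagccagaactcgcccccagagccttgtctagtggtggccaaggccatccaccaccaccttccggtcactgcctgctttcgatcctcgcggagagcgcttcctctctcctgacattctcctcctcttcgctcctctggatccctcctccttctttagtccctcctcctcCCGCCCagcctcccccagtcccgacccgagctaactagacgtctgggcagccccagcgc

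*Fgfr2*, chr7:130266759-130267058, minus strand: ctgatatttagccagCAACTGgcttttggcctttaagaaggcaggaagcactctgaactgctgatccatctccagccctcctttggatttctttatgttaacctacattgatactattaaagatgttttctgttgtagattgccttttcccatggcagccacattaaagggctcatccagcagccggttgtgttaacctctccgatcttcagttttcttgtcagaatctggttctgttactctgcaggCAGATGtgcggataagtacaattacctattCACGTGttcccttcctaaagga

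The 4 windows differ in base composition and in the letters they hold. The GC content was 75.7% for *Met*, 62.3% for *Egfr*, 51% for *Pdgfra* and 43.7% for *Fgfr2*. The *Met* window held 1 AP-1 match at position −54 from the start, 2 E-box matches and 3 GC boxes. The *Egfr* window held 1 GC box and no E-box match, the *Pdgfra* window 2 E-box matches and no GC box, and the *Fgfr2* window 3 E-box matches and no GC box. None of the matches in these 4 windows overlapped another. Over all 32851 windows of this length, 7.81% held an AP-1 match, 72.3% an E-box match and 35.7% a GC box, and none of the 4 windows held a TATA box (TATAAA), which 13.6% of all windows held, or a CCAAT box (CCAAT), which 37.4% held. These matches describe the letters in the windows and not bound sites.

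All 10 receptors passed the filter on low counts, and 5 were higher in KO libraries at an adjusted p under 0.05 (edgeR's quasi-likelihood test, Benjamini-Hochberg adjustment over all genes tested). These were *Pdgfrb*, *Fgfr2*, *Pdgfra*, *Met* and *Egfr*, and 0 receptors were lower, by edgeR, by DESeq2 or at an unadjusted p under 0.05. Among all 14828 genes tested, 22.7% passed the threshold, 12.1% as higher and 10.6% as lower in KO. The KO and WT libraries of 5 receptors did not overlap, against 44.3% of all genes tested, and these were *Pdgfrb*, *Pdgfra*, *Met*, *Egfr* and *Fgfr1*. The median log2 fold change over the 10 receptors was 0.49, with a range of −0.74 to 2.95, and the median over all genes was 0.03. The number past the threshold in either direction depended on which libraries entered. It was 6 without KO1, *Erbb3* among them as lower, 3 without KO2 and 2 without KO3. It was 1 without WT1, 2 without WT2 and 2 without WT3. The count over all genes, 3361, was 4712, 2695, 2088, 933, 2100 and 1288 in the same order.

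**Figure D1:**
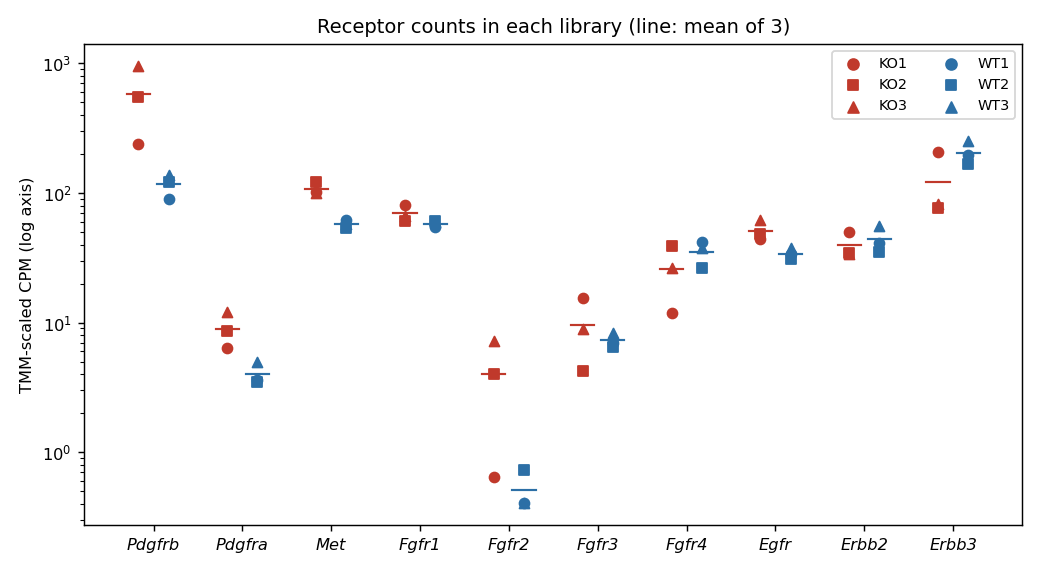
TMM-scaled CPM of each receptor on a log axis, with 1 point per library (KO red, WT blue, marker shape by library number) and a line at the mean of 3 libraries. All KO points lie above all WT points for Pdgfrb, Pdgfra, Met, Fgfr1 and Egfr, whereas the KO1 point of Fgfr2 (0.644 CPM) lies within the WT range.

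Both PDGF receptors were higher in KO libraries, *Pdgfrb* by 5.01-fold and *Pdgfra* by 2.24-fold. *Pdgfrb* (ENSMUSG00000024620, GRCm38 chromosome 18 from 61045150 to 61085061, plus strand) encodes PDGFRβ, the receptor for PDGF-BB and PDGF-DD. It was read at 239, 554 and 957 CPM in the KO libraries against 90.0, 121 and 138 CPM in the WT libraries, in order of library number. Each KO library lay above each WT library, and the KO libraries differed 4.0-fold among themselves, while the WT libraries differed 1.53-fold. The mean was 584 ± 360 CPM in KO and 117 ± 24.4 CPM in WT (SD, n = 3). KO libraries were 5.01-fold higher (log2 2.33, standard error 0.46, adjusted p = 0.0123, edgeR), and the exact two-sided permutation test gave p = 0.1, the smallest that 3 against 3 libraries allow. Leaving out a library gave log2 fold changes of 1.77 (without KO3) to 2.69 (without KO1), and the adjusted p was 0.0656 without WT1 and at most 0.0491 without any other library.

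*Pdgfra* (ENSMUSG00000029231, chromosome 5 from 75152292 to 75198215, plus strand) encodes PDGFRα, which binds all PDGF chains except PDGF-DD. Its level was low, at 6.32, 8.59 and 12 CPM in KO libraries and 3.59, 3.47 and 4.93 CPM in WT libraries. The genotypes did not overlap, and the lowest KO library exceeded the highest WT library by less than the spread among KO libraries. KO libraries were 2.24-fold higher (log2 1.17, standard error 0.29, adjusted p = 0.0257, edgeR). The call was lost without KO3 (adjusted p = 0.0702) and without WT1, WT2 or WT3 (0.109, 0.0793 and 0.0576), at log2 fold changes of 0.90 to 1.32, and held without KO1 (log2 1.36, adjusted p = 0.00599, edgeR). In the annotation, 6.50% of the exon bases of *Pdgfra* are shared with other genes (*Gm42802*, *Gm42803* and *Mir7025*).

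Some genes that mark fibroblasts and fibro-adipogenic cells were also higher in KO. Of 8 such markers 6 were tested, *Pdgfra* itself among them. Besides *Pdgfra* the genes *Ly6a*, *Pi16* and *Tcf7l2* passed the threshold as higher, beside 12.1% of all genes tested. The calls of *Pi16* without WT1 or WT3 and of *Tcf7l2* without WT3 were lost (adjusted p = 0.0800, 0.0734 and 0.0537, edgeR). *Col15a1*, a collagen gene, was at 0.616, 11.6 and 35.6 CPM in KO and at 11.6, 36.9 and 29.5 CPM in WT (log2 −0.70, adjusted p = 0.638, edgeR). The median log2 fold change of the 6 was 1.36. The summed level of the list was 112 to 182 CPM in KO libraries and 41.3 to 67.4 CPM in WT libraries, and *Dpp4* and *Lum* were too low to test. *Ly6a*, which encodes the surface protein SCA-1, was read at 57.6, 84.2 and 33.4 CPM in KO libraries and at 7.98, 8.26 and 9.54 CPM in WT libraries. *Dcn*, which encodes the matrix protein decorin, was at 90.6, 7.58 and 7.62 CPM in KO and at 11.6, 7.01 and 17.7 CPM in WT (adjusted p = 0.259, edgeR), and so was high in KO1 alone, with a log2 value of −0.68 without that library. The part of such cells in the rise of the PDGF receptors was not tested, and in bulk RNA more cells of a type and more RNA per cell cannot be told apart.

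*Met* (ENSMUSG00000009376, chromosome 6 from 17463800 to 17573980, plus strand) encodes the receptor for HGF and gave the most even rise. It was read at 101, 122 and 100 CPM in KO libraries and at 62.3, 53.7 and 57.4 CPM in WT libraries. The groups did not overlap, and within each genotype the libraries differed by only 1.22-fold and 1.16-fold. The mean was 108 ± 12.4 CPM in KO and 57.8 ± 4.32 CPM in WT (SD, n = 3), a 1.87-fold difference (log2 0.90, standard error 0.13, adjusted p = 0.00502, edgeR). Omitting any single library left the log2 fold change of *Met* between 0.80 and 0.95 and its adjusted p between 0.00278 and 0.0332.

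The FGF receptors diverged among themselves. *Fgfr1*, the most abundant of them, differed little, *Fgfr2* rose from a very low level, and *Fgfr3* and *Fgfr4* varied between KO libraries by more than between the genotypes. These receptors bind overlapping sets of FGFs with heparan sulphate as a cofactor. *Fgfr4* is the form most closely tied to differentiating myoblasts and muscle regeneration.

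*Fgfr1* (ENSMUSG00000031565, chromosome 8 from 25513654 to 25575714, plus strand) was read at 80.8, 61.0 and 66.9 CPM in KO libraries and at 54.4, 60.3 and 59.2 CPM in WT libraries. The groups did not overlap, but KO2 and WT2 lay within 1 CPM of each other. The difference was 1.2-fold (log2 0.26, standard error 0.14, adjusted p = 0.195, edgeR) and did not pass the threshold, with a log2 fold change of 0.14 without KO1. The 60 tested genes in its 10 Mb stretch of the chromosome had a median log2 fold change of −0.18, and with such regional medians removed *Fgfr1* was called higher (log2 0.47, adjusted p = 0.0484, edgeR).

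*Fgfr2* (ENSMUSG00000030849, chromosome 7 from 130162451 to 133123350, minus strand) had 23, 176 and 297 counts in the KO libraries against 14, 24 and 15 counts in the WT libraries. In CPM these were 0.644, 4.03 and 7.25 in KO libraries and 0.405, 0.731 and 0.404 in WT libraries. KO1 lay below WT2, so the groups overlapped, while KO2 and KO3 were above every WT library. KO libraries were 7.74-fold higher on average (log2 2.95, standard error 0.79, adjusted p = 0.0331, edgeR), and without KO1 the log2 fold change was 3.45 (adjusted p = 0.000830). The call was lost without KO3 (log2 2.20, adjusted p = 0.0950, edgeR), KO2 (log2 2.96, adjusted p = 0.0597), WT1 (log2 2.80, adjusted p = 0.128), WT2 (log2 3.28, adjusted p = 0.0673) or WT3 (log2 2.78, adjusted p = 0.118). The annotated span overlaps 69 other genes, and 3.04% of the exon bases of *Fgfr2* are shared with *Ctbp2*.

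*Fgfr3* (ENSMUSG00000054252, chromosome 5 from 33721674 to 33737068, plus strand) was at 15.6, 4.26 and 8.96 CPM in KO libraries and at 7.0, 6.52 and 8.30 CPM in WT libraries. The KO libraries lay on both sides of the WT range (log2 0.40, standard error 0.41, adjusted p = 0.512, edgeR), and without KO1 the sign turned (log2 −0.15). Of its exon bases, 13.9% are shared with an antisense gene, and since the use of strand in the counting is not stated in the sources used here, reads of the pair cannot be told apart. *Fgfr4* (ENSMUSG00000005320, chromosome 13 from 55152640 to 55168759, plus strand) was at 11.8, 39.1 and 26.2 CPM in KO libraries and at 41.9, 26.3 and 37.3 CPM in WT libraries. KO1 was the lowest of all 6 libraries and KO2 lay inside the WT range (log2 −0.45, standard error 0.39, adjusted p = 0.425, edgeR). Without KO1 the log2 fold change of *Fgfr4* was −0.11, and without KO2 it was −0.88.

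The EGF receptor family held 1 rise and no fall that passed the test. *Egfr* (ENSMUSG00000020122, chromosome 11 from 16752203 to 16918158, plus strand), the receptor for EGF and related ligands, was at 44.0, 48.2 and 61.4 CPM in KO libraries and at 33.5, 30.9 and 37.7 CPM in WT libraries. The groups did not overlap, and the difference was 1.5-fold (log2 0.59, standard error 0.16, adjusted p = 0.0350, edgeR). The call was lost without KO2 (adjusted p = 0.0556), KO3 (0.0817), WT1 (0.13), WT2 (0.109) or WT3 (0.0872), although the log2 fold change lay between 0.44 and 0.68, the highest of these without KO1 (adjusted p = 0.0153). With regional medians removed the log2 fold change was 0.97 (adjusted p = 0.00790), because the median of its 10 Mb stretch was −0.35.

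*Erbb3* (ENSMUSG00000018166, chromosome 10 from 128567523 to 128589652, minus strand) was at 208, 76.6 and 82.7 CPM in KO libraries and at 197, 167 and 251 CPM in WT libraries. KO1 lay inside the WT range, and KO2 and KO3 lay below every WT library. The difference over all libraries did not pass the threshold (log2 −0.74, standard error 0.38, adjusted p = 0.188, edgeR), and without KO1 it did (log2 −1.37, adjusted p = 0.00196). Of the 13 muscle markers, 9 were highest in KO1 among the KO libraries, 2 in KO2 and 2 in KO3. The part of the KO1 library's muscle gene level in the *Erbb3* result was not tested. *Erbb2* (ENSMUSG00000062312, chromosome 11 from 98412470 to 98437716, plus strand), its signaling partner, was at 49.7, 34.4 and 33.9 CPM in KO libraries and at 41.3, 34.8 and 55.8 CPM in WT libraries. KO1 lay inside the WT range, and KO2 and KO3 lay just below WT2, the lowest WT library (log2 −0.16, standard error 0.22, adjusted p = 0.621, edgeR), and the sign turned without WT3 (log2 0.015).

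**Figure D2:**
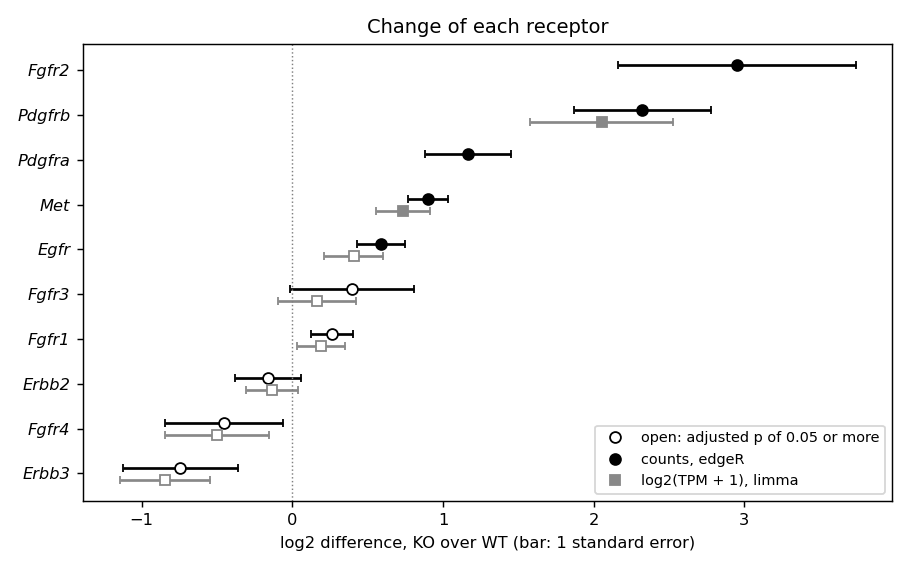
Difference between KO and WT for each receptor on a log2 scale, from counts (circles, edgeR) and from log2(TPM + 1) (squares, limma), with bars of 1 standard error and filled symbols where the adjusted p is under 0.05. Fgfr2, Pdgfrb, Pdgfra, Met and Egfr are filled circles and Pdgfrb and Met are filled squares, and Fgfr2 and Pdgfra have no square because they were too low to test in TPM.

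TPM, which count transcripts with a correction for their length and are scaled to a fixed sum in each library, were the second measure and allow levels to be compared between receptors. Of the 8 receptors with enough TPM to test, 2 passed the threshold, against 20.2% of all 11691 genes tested this way (limma on log2(TPM + 1)). *Pdgfrb* was at 27.2, 66.2 and 136 TPM in KO libraries and at 11.4, 15.9 and 16.3 TPM in WT libraries (difference 2.05 on the log2(TPM + 1) scale, standard error 0.47, adjusted p = 0.0191, limma). *Met* was at 11.3, 12.8 and 13.0 TPM in KO libraries and at 9.03, 5.71 and 6.62 TPM in WT libraries (difference 0.74, standard error 0.18, adjusted p = 0.0231, limma). The TPM of both genes did not overlap between genotypes. *Egfr* was at 3.88, 3.92 and 6.22 TPM in KO and 3.06, 2.81 and 3.82 TPM in WT, which also did not overlap but did not pass the threshold (difference 0.41, adjusted p = 0.166, limma).

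In WT libraries the receptors ranked by mean TPM were *Erbb3* (23.6), *Pdgfrb* (14.5), *Fgfr1* (10.9), *Fgfr4* (7.26), *Met* (7.12), *Erbb2* (5.99), *Egfr* (3.23), *Fgfr3* (1.33), *Pdgfra* (0.444) and *Fgfr2* (0.122). Neighbours in this order overlapped between libraries only for *Fgfr4* with *Met* and for *Met* with *Erbb2*. In KO libraries the order was *Pdgfrb* (76.4), *Erbb3* (13.7), *Fgfr1* (12.7), *Met* (12.4), *Erbb2* (5.36), *Fgfr4* (5.28), *Egfr* (4.67), *Fgfr3* (1.74), *Pdgfra* (0.930) and *Fgfr2* (0.782). There, the libraries of neighbours stood apart at 3 steps, between *Pdgfrb* and *Erbb3*, between *Met* and *Erbb2* and between *Egfr* and *Fgfr3*. *Erbb3* thus ranked first in WT and *Pdgfrb* first in KO.

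The makeup of the receptor RNA followed from these levels and was described without a test. The summed TPM of the 10 receptors was 88.0, 117 and 197 in the KO libraries against 73.4, 68.7 and 81.6 in the WT libraries. *Pdgfrb* made up 30.9%, 56.7% and 69.0% of it in KO libraries and 15.6%, 23.1% and 19.96% in WT libraries. *Erbb3* made up 24.8%, 7.20% and 5.47% in KO libraries and 31.7%, 29.6% and 33.5% in WT libraries. KO1 lay between the other KO libraries and the WT libraries in both shares.

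**Figure D3:**
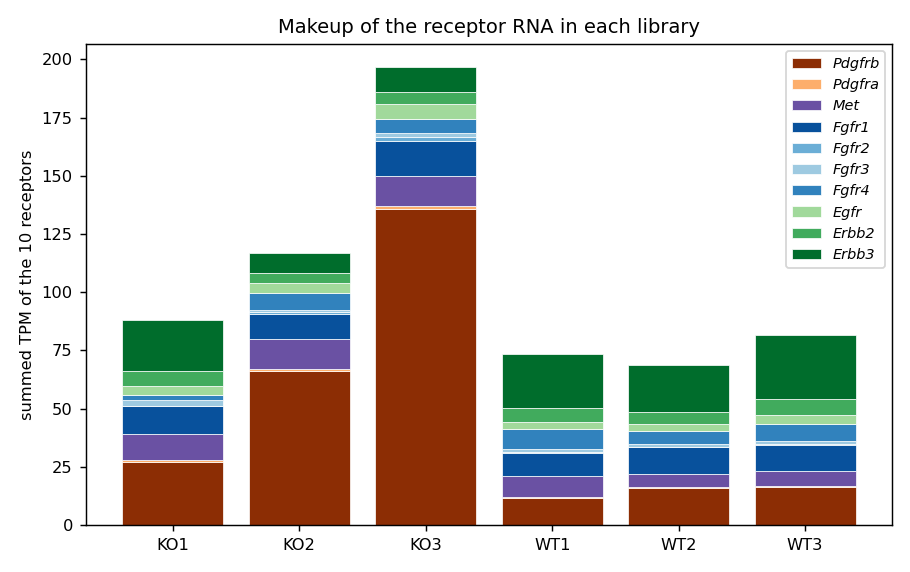
Summed TPM of the 10 receptors in each library, with stacked parts for each receptor. The Pdgfrb part grows from 15.6% to 23.1% of the WT bars to 30.9% to 69.0% of the KO bars, and the summed TPM of the FGF receptors (blue) stays between 16.9 and 24.6 in all 6 libraries.

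Among the 4 FGF receptors the summed TPM was 20.5 ± 3.84 in KO and 19.6 ± 1.01 in WT (SD, n = 3). *Fgfr1* took 62.4% ± 7.93 of it in KO and 55.8% ± 5.64 in WT. *Fgfr4* took 25.2% ± 12.8 in KO and 36.8% ± 6.58 in WT, *Fgfr3* took 8.97% ± 6.42 and 6.78% ± 0.674, and *Fgfr2* took 3.46% ± 2.91 and 0.643% ± 0.585. Single libraries weighed on these shares, since that of *Fgfr2* was 1.98% in KO without KO3 and 0.305% in WT without WT2, and that of *Fgfr3* was 5.43% in KO without KO1. The per-library shares overlapped between the genotypes for each of the 4. Within the EGF receptor family, *Egfr* took 12.1%, 23.2% and 28% of the family's TPM in KO libraries and 9.53%, 9.95% and 9.97% in WT libraries.

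**Figure D4:**
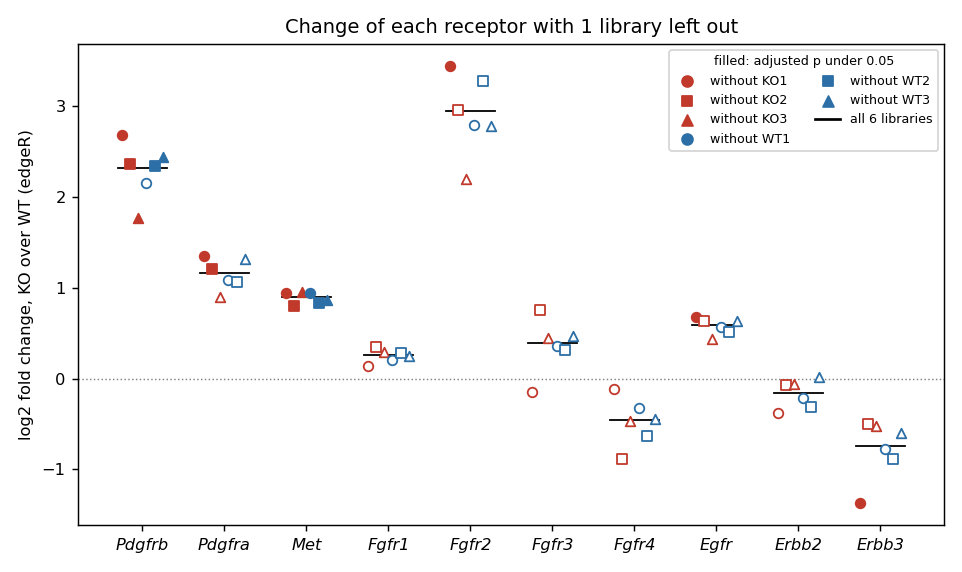
Log2 fold change of each receptor (edgeR) with all 6 libraries (line) and with each library left out in turn (points, filled where the adjusted p is under 0.05). The 6 points of Met are filled, those of Fgfr2, Pdgfra and Egfr are mostly open, and Erbb3 is filled only without KO1.

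The ligands of these receptors were examined from lists assembled for this purpose. Of 22 FGF genes, 7 passed the filter, 1 was higher and 2 were lower in KO (42.9% called, beside 22.7% of all genes), and the median log2 fold change was −0.11. *Fgf7*, a ligand of an FGFR2 splice form, fell from 24.9, 29.7 and 27.3 CPM in WT libraries to 12.5, 10.2 and 12.2 CPM in KO libraries (log2 −1.23, standard error 0.15, adjusted p = 0.00278, edgeR). *Fgf9* fell from 75, 179 and 61 counts in WT to 6, 2 and 6 counts in KO (adjusted p = 0.00456, edgeR). *Fgf10*, another ligand of that FGFR2 form, rose from 1, 4 and 6 counts in WT to 11, 467 and 197 counts in KO (adjusted p = 0.0184, edgeR). The library order of *Fgf10* placed KO1 nearest to WT, as that of *Fgfr2* did.

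PDGF ligands moved in both directions. *Pdgfa*, the chain that binds PDGFRα, was at 82.6, 68.6 and 110 CPM in KO and at 51, 56.4 and 51.8 CPM in WT (log2 0.72, adjusted p = 0.0273, edgeR). *Pdgfb* fell from 6.91, 4.15 and 5.74 CPM in WT to 2.29, 0.275 and 0.684 CPM in KO (log2 −2.38, adjusted p = 0.0391, edgeR). The log2 fold change of *Pdgfb* was −3.55 without KO1 and −1.92 without KO2. *Pdgfc* fell from 41.5, 64.0 and 35.0 CPM to 17.9, 5.86 and 20.3 CPM (log2 −1.67, adjusted p = 0.0320, edgeR). *Pdgfd* fell from 3.99, 3.38 and 5.44 CPM to 0.224, 0.229 and 0.171 CPM (log2 −4.34, standard error 0.35, adjusted p = 0.000668, edgeR). So *Pdgfb* and *Pdgfd*, whose products bind PDGFRβ, were lower in each KO library than in any WT library, while *Pdgfrb* was higher in each.

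*Hgf*, the ligand of MET, rose from 10.5, 9.51 and 11.9 CPM in WT to 24.0, 27.1 and 23.6 CPM in KO (log2 1.23, standard error 0.15, adjusted p = 0.00278, edgeR), so that ligand and receptor were both higher in all KO libraries. In the list of 15 tested HGF, PDGF, VEGF and related ligands, 5 were higher and 4 lower (beside 22.7% of all genes called), with a median log2 fold change of 0.44. Among the called genes, the largest rises were of *Gas6*, a ligand of the TAM receptors, *Kitl*, which encodes stem cell factor, and *Csf1*, the macrophage growth factor. Their log2 fold changes were 2.77, 2.55 and 1.38 (adjusted p = 0.0266, 0.00876 and 0.0164, edgeR). The call of *Gas6* was lost without each library except KO1, that of *Kitl* without WT1 and that of *Csf1* without WT1 or WT3. *Vegfb* was the fourth that fell (log2 −1.14). *Pdgfa*, *Hgf* and *Vegfb* lie outside the rule for named genes and were named after their values were seen. Of 11 EGF family ligands 7 were tested and 0 passed the threshold by edgeR, with 1 at an unadjusted p under 0.05 and 1 called by DESeq2.

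**Figure D5:**
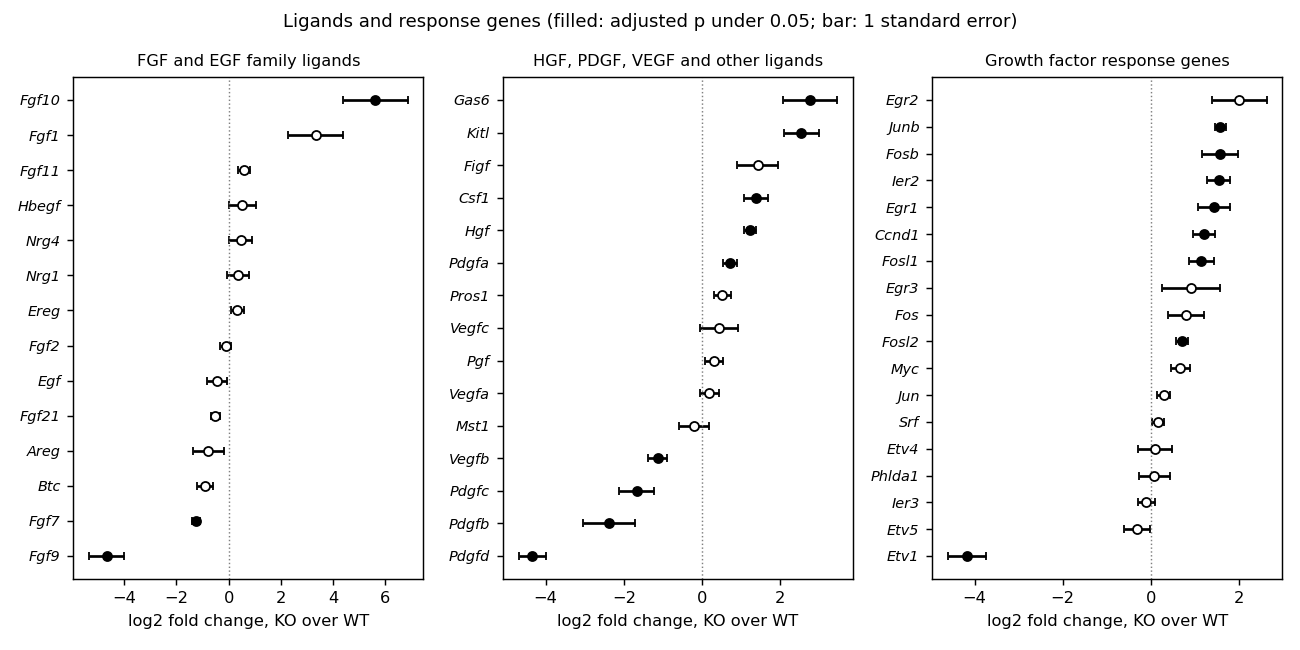
Log2 fold change of KO over WT with 1 standard error for the tested FGF and EGF family ligands, the HGF, PDGF, VEGF and related ligands, and growth factor response genes (edgeR), filled where the adjusted p is under 0.05. Hgf and Pdgfa lie to the right of 0 and Pdgfb, Pdgfc and Pdgfd to the left, no EGF family ligand is filled, and 7 response genes are filled to the right of 0 and 1, Etv1, to the left.

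Co-receptors and heparan sulphate carriers, which present FGFs and HGF to their receptors, included 13 tested genes, of which 4 were higher and 2 lower (46.2% called, beside 22.7% of all genes), with a median log2 fold change of 0.03. The rises were of *Sdc3*, *Gpc6*, *Sdc1* and *Sdc4*, genes of cell surface proteoglycans. *Sdc1* was at 380, 329 and 395 CPM in KO and at 115, 116 and 111 CPM in WT (log2 1.69, standard error 0.13, adjusted p = 0.000640, edgeR). *Sdc3* was at 43.5, 130 and 164 CPM in KO and at 8.53, 7.56 and 10.9 CPM in WT (log2 3.64, standard error 0.47, adjusted p = 0.00302, edgeR). *Gpc3* had 0 counts in each KO library and 12, 16 and 23 counts in WT libraries, and *Flrt1* fell from 3.33, 6.67 and 8.62 CPM to 1.12, 3.23 and 1.83 CPM (adjusted p = 0.0468, edgeR). The call of *Flrt1* was lost without KO1, KO3, WT1, WT2 or WT3, at adjusted p of 0.0540 to 0.148. *Sdc4* (log2 0.92) was named after its values were seen.

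Inside the cell, 27 adaptors and RAS-MAPK relay genes were tested, of which 3 were higher and 2 lower (18.5% called, near the 22.7% of all genes), with a median log2 fold change of −0.09. *Frs2*, the adaptor of FGF receptors, rose by 0.71 on the log2 scale (standard error 0.15, adjusted p = 0.0171, edgeR), and *Src* by 0.62 (adjusted p = 0.0268, edgeR). *Nras* was higher by 0.42 (adjusted p = 0.0293, edgeR), a call that was lost with DESeq2 (adjusted p = 0.0505). In limma on log2(TPM + 1) the calls of *Frs2*, *Src* and *Nras* were lost (adjusted p = 0.0725, 0.0602 and 0.103). *Grb10*, an adaptor that restrains insulin and growth factor receptors, fell from 11.5, 5.58 and 11.8 CPM in WT to 1.62, 1.72 and 0.610 CPM in KO (log2 −2.87, adjusted p = 0.00635, edgeR). *Map2k1*, which encodes the kinase MEK1, was lower by log2 −0.73 (adjusted p = 0.0371, edgeR).

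Feedback inhibitors, several of which MAPK signaling itself induces, were 21 tested genes with 4 higher and 2 lower (28.6% called, beside 22.7% of all genes) and a median log2 fold change of 0.17. *Socs3*, *Spred1*, *Dusp6* and *Rasa1* were higher, at log2 fold changes of 0.77, 0.71, 0.71 and 0.71 (adjusted p = 0.0192, 0.0114, 0.0499 and 0.0437, edgeR), the last named after its values were seen. *Dusp6* was at the threshold and lost its call with other scaling factors (RLE, adjusted p = 0.0523) and with regional medians removed (0.109). In limma on log2(TPM + 1), *Dusp6*, *Rasa1* and *Spred1* lost it (adjusted p = 0.101, 0.101 and 0.0531). *Dusp6* and *Rasa1* also lost it without each library except KO1, *Socs3* without KO3, WT1, WT2 or WT3, and *Spred1* without WT1 or WT3. *Spry1*, a Sprouty gene, fell from 14.9, 13.9 and 16.8 CPM in WT to 4.79, 6.02 and 8.81 CPM in KO (log2 −1.22, adjusted p = 0.0130, edgeR), and *Dusp4*, a MAPK phosphatase gene, was lower by log2 −1.07 (adjusted p = 0.0174, edgeR).

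Of 18 tested growth factor response genes, which cells transcribe soon after receptor stimulation, 7 were higher and 1 was lower (44.4% called, beside 22.7% of all genes), with a median log2 fold change of 0.76. *Junb* was at 251, 299 and 256 CPM in KO and at 93.6, 88.5 and 86.7 CPM in WT (log2 1.58, standard error 0.13, adjusted p = 0.000712, edgeR). *Ier2* rose by 1.55 (adjusted p = 0.00704) and *Fosb*, from a very low level of 0.152 to 0.231 CPM in WT, by 1.57 on the log2 scale (adjusted p = 0.0316, edgeR, but 0.0524 without KO1 and 0.0779 by DESeq2). With regional medians removed the log2 fold changes of *Junb*, *Ier2* and *Fosb* were 1.01, 0.97 and 1.64 (adjusted p = 0.0035, 0.034 and 0.031, edgeR). *Egr1*, *Ccnd1*, *Fosl1* and *Fosl2*, named after their values were seen, were the others that rose. Their log2 fold changes were 1.44, 1.21, 1.15 and 0.72 (adjusted p = 0.0266, 0.0138, 0.0269 and 0.0119, edgeR). The call of *Egr1* was lost without each library except KO1 and in limma on log2(TPM + 1) (adjusted p = 0.0571). That of *Fosl1* was lost without KO3, WT1, WT2 or WT3, and those of *Ccnd1* and *Fosl2* without WT1 or WT3. *Etv1*, an ETS factor gene often read as an FGF target, fell from 6.16, 10.4 and 7.44 CPM in WT to 0.224, 0.664 and 0.415 CPM in KO (log2 −4.18, standard error 0.43, adjusted p = 0.00167, edgeR). The related genes *Etv4* (log2 0.09, adjusted p = 0.879) and *Etv5* (log2 −0.31, adjusted p = 0.475) were not called (edgeR). The list of 8 cycling cell markers held 0 calls by edgeR, 2 at an unadjusted p under 0.05 and 1 by DESeq2, with summed CPM of 346 to 596 in KO and 343 to 410 in WT.

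Of the 46 called genes of the ligand, co-receptor, other receptor, relay, feedback, response, muscle and fibroblast lists that were followed, 13 kept an adjusted p under 0.05 with each library left out in turn (edgeR). These were *Hgf*, *Fgf7*, *Fgf9*, *Pdgfd*, *Sdc1*, *Sdc3*, *Gpc3*, *Gpc6*, *Grb10*, *Junb*, *Ier2*, *Etv1* and *Ly6a*. The other 33 lost the call without at least 1 library, 32 without WT1 and 32 without WT3, against 2 without KO1, 7 without KO2, 16 without KO3 and 17 without WT2, and 0 changed sign. The count over all genes moved the same way, from 3361 to 933 without WT1 and 1288 without WT3 and to 4712 without KO1. *Pdgfa*, *Pdgfb* and *Pdgfc* were among those that lost the call, with adjusted p of at most 0.112, 0.129 and 0.0882. As libraries were left out, the number past the threshold ranged from 3 to 10 for response genes and from 0 to 9 for feedback inhibitors. It ranged from 1 to 8 for relay genes and from 2 to 11 for HGF, PDGF and VEGF ligands. For muscle, cycling cell and fibroblast markers it ranged from 0 to 9, 0 to 4 and 1 to 4. Over all genes the range was 933 to 4712.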

How the data were processed

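RNA-sequencing of 3 KO and 3 WT libraries of differentiated C2C12 cells was analysed. The authors used STAR for alignment and deposited raw read counts per gene, not normalized, in 1 table. StringTie output was deposited per library and holds TPM, FPKM and coverage signal. TPM sharing a gene identifier were summed, and the deposited FPKM and coverage were not used. The submitters' processing notes also name FastQC, Trim Galore, featureCounts and Salmon. The build in the paper's methods is GRCm39, that of the notes is mm9, and the deposited coordinates match GRCm38, which is used here. Annotation release and strand setting of the counting are not given in the sources used here.

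All 6 columns of counts were used. Counts were scaled with TMM factors (0.949 to 1.08), filtered with filterByExpr and tested two-sided with edgeR 4.0.16 (quasi-likelihood, genotype alone) in R 4.3.3, with Benjamini-Hochberg adjustment over 14828 genes and a threshold of 0.05, and 5781 genes had an unadjusted p under 0.05. TPM were tested with limma 3.58.1 on log2(TPM + 1), for genes with at least 1 TPM in at least 3 libraries. DESeq2 1.42.0 was an alternative, and the others were another scaling, other filters, a pseudocount of 0.1, regional medians removed over 10 Mb, a replicate block and leaving out each library. Standard errors are the absolute log2 fold change divided by the square root of edgeR's F. Libraries of 1 genotype differed by far more than counting noise (chi-square per degree of freedom 46.6 to 171), and none repeated another. The tests were checked on simulated data drawn with the same spread in both genotypes. That check does not cover the wider spread among the KO libraries. Exon sharing was read from GENCODE on GRCm38.

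The receptors and all gene lists were chosen with earlier results of these data known. Named genes were the 10 receptors, and of each list the called genes with the 3 largest rises and 3 largest falls. For each called receptor the 3 most alike genes over the 6 libraries were named (Pearson's r of log2 CPM, mean log2 CPM at least 5, no predicted-gene names). Cell type markers were taken by list.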

Additional observations from a re-analysis of the deposited data

How the results depend on the processing

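Of the 5 receptors called higher, *Met* kept its call in 15 of 16 alternatives, *Pdgfrb* in 14 of 16, *Pdgfra* in 9 of 14, *Egfr* in 8 of 16 and *Fgfr2* in 6 of 13, and none of the 5 changed sign. The number of receptors past the threshold was 5 with DESeq2, with other scaling and with library totals, 4 with at least 1 CPM in 3 libraries, 6 without a filter and 6 with regional medians removed, but 2 in limma on log2(TPM + 1), 2 with a pseudocount of 0.1 and 0 in TPM with no filter. It ranged from 1 to 6 with each library left out. The count over all genes, 3361, became 4538 without a filter on low counts, 2114 in limma on log2(TPM + 0.1) and 1056 in limma on log2(TPM + 1) with no filter, and ranged from 933 to 4712 with a library left out. Signs turned for *Fgfr3*, whose log2 value lay between −0.15 and 0.75 (−0.090 without KO1 in TPM), *Erbb2*, between −0.37 and 0.015, and *Dcn*, between −0.68 and 2.02, with a library left out. *Erbb3* was called lower without KO1 and without a filter, and *Fgfr1* higher with regional medians removed. Library totals moved the median of all genes to 0.15. With the replicate number as a block, 4 receptors and 2520 genes passed the threshold and *Fgfr2* did not (adjusted p = 0.0524, edgeR). Deviations of same-numbered libraries from their genotype's mean correlated at 0.14, −0.12 and 0.00, and not every library correlated best with its own number. With only 3 libraries around each mean, these correlations cannot decide whether the numbers pair the libraries. Of the 46 called genes of the other lists, 44 kept the call with DESeq2, 38 with the block, 38 with regional medians removed (not *Dusp4*, *Dusp6*, *Flrt1*, *Fosl2*, *Map2k1*, *Myf5*, *Nras* and *Sdc4*), 25 of 33 in limma on log2(TPM + 1) and 8 with no filter there. The cause of these differences was not tested. *Fgfr2* and *Pdgfra* fell below the TPM filter, and *Fgfr2* below that of at least 1 CPM in 3 libraries, so they have no value there.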

Other observations

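Among 23 other receptor tyrosine kinases, 10 passed the filter, 1 was higher and 1 lower in KO (edgeR), close to the 22.7% of all genes called, with a median log2 fold change of 0.22 beside 0.03 over all genes. *Mertk*, a TAM receptor that binds the product of *Gas6*, was at 4.67, 7.12 and 7.06 CPM in KO libraries and at 2.29, 3.14 and 2.97 CPM in WT libraries (log2 1.17, standard error 0.26, adjusted p = 0.0194, edgeR). Its call was lost without KO3, WT1 or WT3. *Kdr*, the VEGF receptor of endothelial cells, had 2, 16 and 10 counts in KO and 25, 31 and 51 counts in WT (adjusted p = 0.0363, edgeR), with *Pecam1*, *Tie1* and *Emcn* at 3 counts or fewer in every library and *Cdh5* at 1, 2 and 3 counts in KO and 4, 2 and 11 counts in WT.

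The genes whose log2 CPM followed each called receptor most closely over the 6 libraries were read out among 5369 candidates, as a description of 6 points that share genotype and library. For *Pdgfrb* these were *Sf3b3* (r = 0.9995), *U2surp* (0.998) and *Col6a2* (0.997). For *Met* they were *Socs5* (r = 0.998), *Fam63b* (0.997) and *Cc2d1a* (0.993), and for *Fgfr2* *Zmym4* (0.996), *Igf1* (0.995) and *Nucks1* (0.994). *Pdgfra* and *Egfr* followed each other (r = 0.992), and both had *Srpk1* and *Bms1* among their 3 closest genes, with *Exoc1* the third for *Egfr*. *Igf1*, which encodes insulin-like growth factor 1, was itself higher in KO (log2 3.01, adjusted p = 0.0235, edgeR).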
